A study of Mus musculus with 6 samples.

Results

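The semaphorins, the plexins and the neuropilins of the mouse sciatic nerve are described here as 1 gene family system. Its members were taken by gene symbol alone: Sema3 to Sema7 genes with a letter a to g, Plxna to Plxnd genes with a number, and Nrp1 and Nrp2. This gave 31 of the 21225 probe sets of the array table, namely 20 semaphorins, 9 plexins and 2 neuropilins, each measured by 1 probe set. Whole nerves of 6 mice aged 25 days were measured on Affymetrix whole-transcript arrays, 1 array a mouse. The 3 mutants were DhhCre::Sip1 flox/flox, so Cre was driven by Dhh (desert hedgehog), a gene that Schwann cells switch on early. Both copies of Sip1, now called Zeb2, were floxed. The 3 controls were Sip1 flox/flox without Cre, so an effect of Cre itself and an effect of the deletion cannot be told apart. The comparison asks which of these guidance genes differed between mutant and control nerves.

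Semaphorins are secreted or membrane-bound guidance proteins that share a sema domain. Their main receptors are the plexins, which act on small GTPases and the cytoskeleton. Class 3 semaphorins are secreted, and most reach A plexins through neuropilins, which bind the ligand, while the membrane-bound classes mostly bind plexins directly. In nerve, the family is known for steering axons in development and for its expression by Schwann cells, fibroblasts and vessels. ZEB2 is a zinc finger transcription factor that binds E-box-like DNA and is required in Schwann cells for myelination.

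Zeb2 was checked first. Mutants 1 to 3 had log2 values of 10.96, 10.66 and 11.01, controls 1 to 3 had 11.67, 11.57 and 12.02, and the groups differed by −0.88 (SE 0.15, limma adjusted p = 0.0137). Without mutant 1 the adjusted p was 0.0522. The arrays ran from 3.55 to 14.52 with medians between 7.995 and 8.08, no detection calls were used, and low values may be background. The samples differed in other tissue: the mean of 14 skeletal muscle markers ranged over 5.26 on the log2 scale, highest in mutant 2 and control 2, and the mean of 9 adipocyte markers over 2.06. Sex was read from the values of Xist and Kdm5d. By this, mutants 1 and 2 and control 3 were male, and mutant 3 and controls 1 and 2 were female. So the sexes were mixed in both groups but not balanced between them. The labels name 3 mice a group and call the samples biological replicates.

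Across the family, 15 of 31 genes differed between mutant and control nerves, 6 higher and 9 lower. The test was limma's moderated test with a Benjamini-Hochberg adjusted p under 0.05 over 20239 named genes. Among all named genes 9.62% differed, 5.74% higher and 3.89% lower, against 48.4% of the family, with 19.4% higher and 29.0% lower. Of the 28 members whose mean value lay above the median of all named genes 14 differed, where 15.5% of all genes above that median did. The largest fall was that of Sema4g, followed by Sema5a, Sema6c, Sema6d, Plxnb3 and Sema4c, all at least 2-fold. Sema3d had the largest rise and was the only member to rise by at least 2-fold. The median log2 difference of the 31 genes was −0.19, against −0.02 over all named genes, and the median size of a difference, whatever its sign, was 0.57 against 0.14. These shares and medians describe the list and are no test of it.

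**Figure D1:**
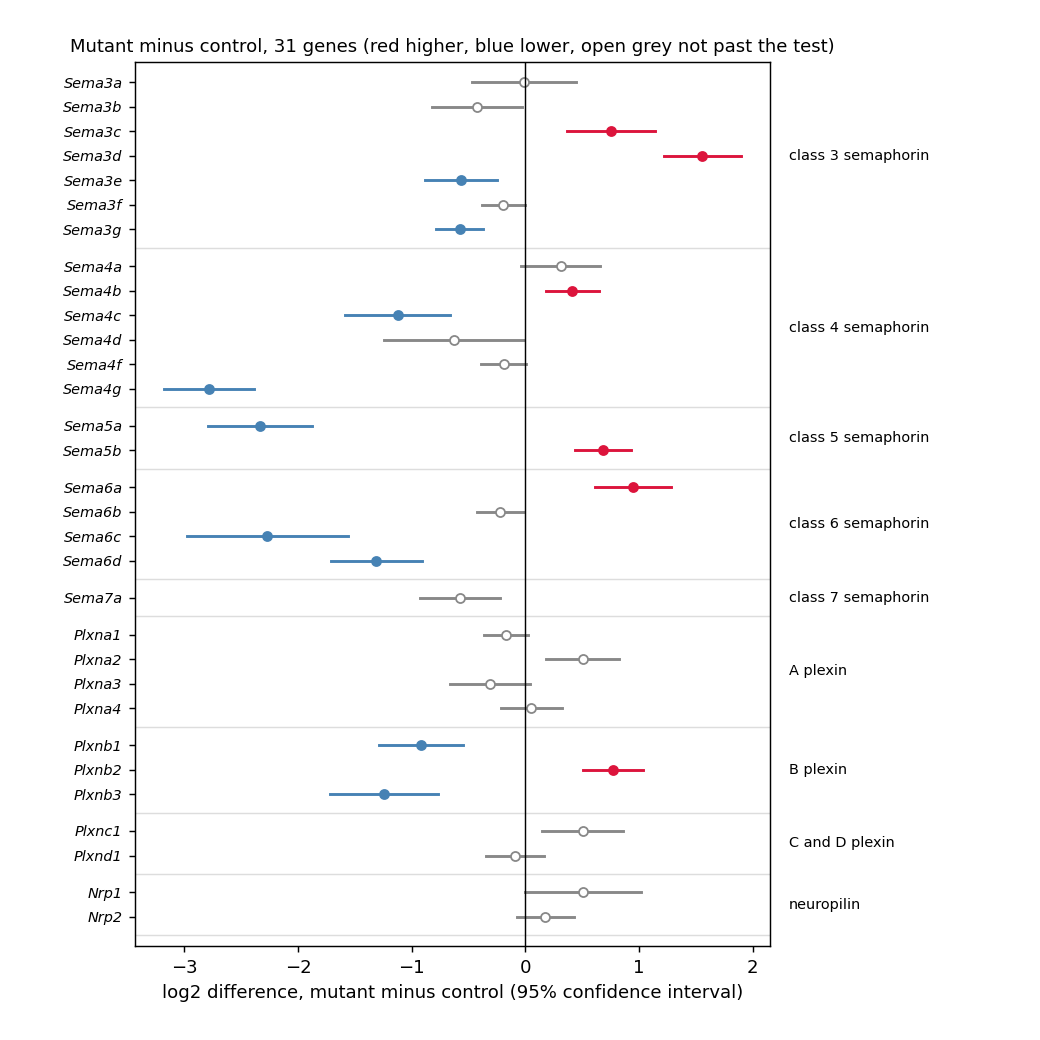
Log2 difference, mutant minus control, of the 31 genes by class, as points with 95% confidence intervals (3 mice a group). Red points rose, blue points fell and open grey points did not pass the test. Sema4g lies farthest left at −2.78 and Sema3d farthest right at 1.56, and every semaphorin class from 3 to 6 holds both red and blue points.

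Values of 26 members did not overlap between the groups, 10 with all mutants above and 16 with all mutants below, where 28.1% of all named genes did not overlap. The 11 of these that did not pass the test are given with their classes below. The samples of a group also differed among themselves in a shared way. Control 3 was the highest control in 8 of the 9 members that fell, and mutant 2 the lowest mutant in 12 of the 15 members that changed. The mean of 6 Schwann cell lineage markers was likewise highest in control 3, at 11.00, against 10.39 and 10.45 in controls 1 and 2. It was lowest in mutant 2, at 9.70, against 10.05 and 10.13 in mutants 1 and 3. The part of this in the results was not tested.

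**Figure D2:**
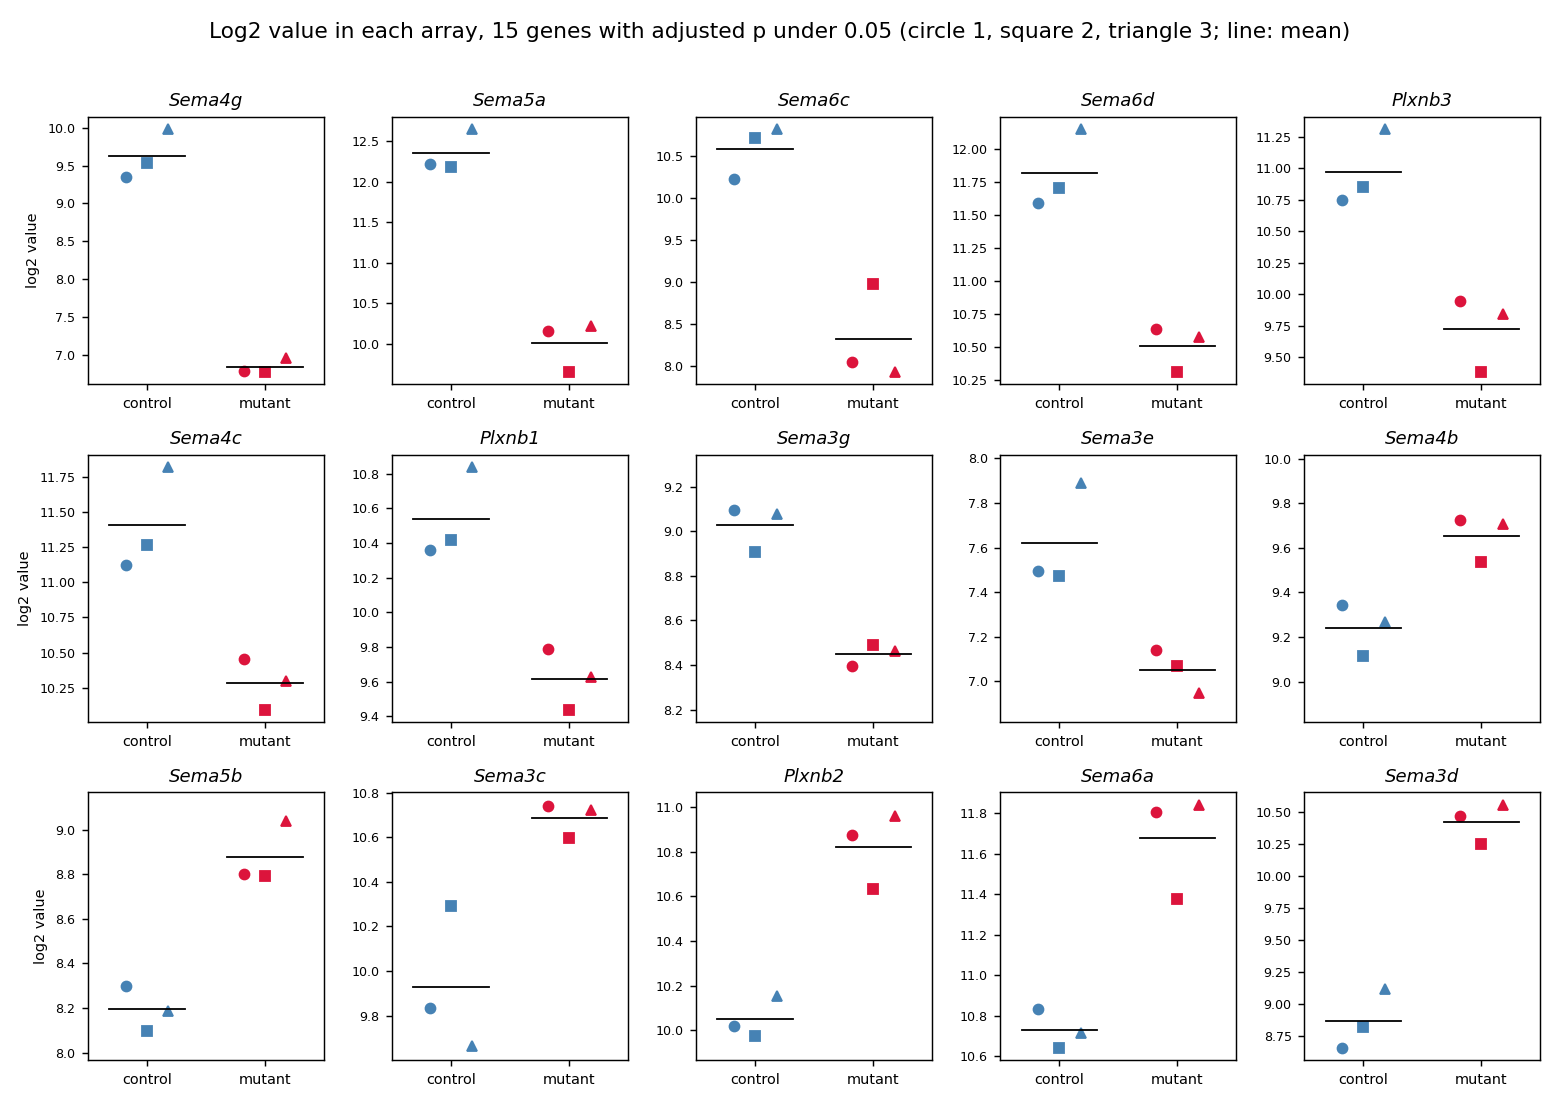
Log2 value of the 15 members that changed in each of the 6 arrays, ordered from the largest fall to the largest rise. Circles, squares and triangles are samples 1, 2 and 3, lines are group means, and each panel has its own axis of log2 values. In every panel the 3 mutant values lie on one side of the 3 control values. In the Sema6c panel the square of mutant 2 stands at 8.98, above 8.05 and 7.93 in the other mutants.

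Promoters are shown for 4 changed members whose window holds the E-box CACCTG, the motif bound by ZEB proteins, and for Sema4g, which had the largest change. The windows run from 250 bases before to 50 after a RefSeq transcription start, in GRCm38.p6, 5′ to 3′ on the strand of the gene. Capitals mark CACCTG or its reverse complement CAGGTG, and in Sema4g the shorter AGGTG, reverse complement of CACCT, which lies within every CACCTG. The members that rose are Sema3d (chr5:12382916-12383215, + strand) and Plxnb2 (chr15:89173902-89174201, − strand). Those that fell are Sema4c (chr1:36558332-36558631, − strand), Sema6d (chr2:124653331-124653630, + strand) and Sema4g (chr19:44989094-44989393, + strand).
Sema3d: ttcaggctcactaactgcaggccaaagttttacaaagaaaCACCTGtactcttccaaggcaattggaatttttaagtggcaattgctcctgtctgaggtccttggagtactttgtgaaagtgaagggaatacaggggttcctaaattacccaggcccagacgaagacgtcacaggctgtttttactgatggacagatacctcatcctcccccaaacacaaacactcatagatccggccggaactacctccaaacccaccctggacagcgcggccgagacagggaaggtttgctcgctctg
Plxnb2: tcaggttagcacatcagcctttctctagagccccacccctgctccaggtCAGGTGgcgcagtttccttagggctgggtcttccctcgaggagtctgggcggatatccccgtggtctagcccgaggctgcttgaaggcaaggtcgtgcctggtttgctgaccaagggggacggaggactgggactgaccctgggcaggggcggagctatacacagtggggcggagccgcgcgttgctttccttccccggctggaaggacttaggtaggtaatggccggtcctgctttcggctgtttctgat
Sema4c: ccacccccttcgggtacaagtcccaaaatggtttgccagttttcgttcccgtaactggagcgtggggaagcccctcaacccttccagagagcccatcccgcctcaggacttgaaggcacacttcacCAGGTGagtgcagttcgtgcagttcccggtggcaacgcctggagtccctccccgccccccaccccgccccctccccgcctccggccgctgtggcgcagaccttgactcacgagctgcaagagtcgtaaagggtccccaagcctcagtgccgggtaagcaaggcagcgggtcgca
Sema6d: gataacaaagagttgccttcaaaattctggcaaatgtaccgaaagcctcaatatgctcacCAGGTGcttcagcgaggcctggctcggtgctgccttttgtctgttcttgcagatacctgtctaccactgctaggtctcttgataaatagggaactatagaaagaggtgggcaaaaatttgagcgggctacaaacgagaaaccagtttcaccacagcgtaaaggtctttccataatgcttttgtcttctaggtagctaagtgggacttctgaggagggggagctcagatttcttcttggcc
Sema4g: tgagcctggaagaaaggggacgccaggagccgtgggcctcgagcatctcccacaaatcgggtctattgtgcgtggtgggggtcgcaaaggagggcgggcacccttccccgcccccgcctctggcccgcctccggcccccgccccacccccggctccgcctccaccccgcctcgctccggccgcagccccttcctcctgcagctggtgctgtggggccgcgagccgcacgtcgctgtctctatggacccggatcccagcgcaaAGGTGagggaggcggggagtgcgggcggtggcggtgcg

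RefSeq windows were matched for 26 of the 31 members, 37 windows in all, since several genes have more than 1 start. CACCTG, on either strand, was in 2 of 7 windows of members that rose, in 2 of 12 of members that fell and in 1 of 18 of the others, and in 20.2% of all 32851 windows. CACCT was in 4 of 7, 8 of 12 and 8 of 18, and in 51.9% of all windows. The motif lay at position −210 of Sema3d, −201 of Plxnb2, −124 of Sema4c and −190 of Sema6d, counted from the start site, and CACCT lay at position 13 of Sema4g. So the letters occurred in windows of genes that went either way. Plxnb2, Sema4c and Sema6d each have another window without CACCTG, and which start the nerve uses was not measured. A match is a description of the letters and not a measured binding site.

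Class 3 semaphorins, the secreted class, went both ways: of 7 genes 2 rose, 2 fell and 3 did not pass. Sema3d, a secreted guidance cue of neural crest and vessels, stood at 10.46, 10.25 and 10.56 in mutants 1 to 3, while controls 1 to 3 had 8.66, 8.82 and 9.12. All mutants were higher than every control by more than the spread within either group, and the groups were 10.42 ± 0.16 and 8.87 ± 0.23 (mean ± SD, n = 3 each). The log2 difference was 1.56 (SE 0.14, 2.94-fold, limma adjusted p = 0.00145), and 114 of the 1161 genes that rose did so by more.

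Sema3c, a secreted semaphorin needed for the cardiac outflow tract, stood at 10.74, 10.60 and 10.72 in the mutants and at 9.83, 10.29 and 9.66 in the controls. The mutants lay close together and the controls were spread, control 2 being the nearest to the mutants. Sema3c differed by 0.76 on the log2 scale (SE 0.16, limma adjusted p = 0.0326). The call was lost on leaving out mutant 1 (adjusted p = 0.129), mutant 2 (0.0609), mutant 3 (0.128), control 1 (0.0896) or control 3 (0.0687).

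Sema3g, a semaphorin of vessel walls, fell from 9.09, 8.91 and 9.08 in the controls to 8.39, 8.49 and 8.46 in the mutants (log2 difference −0.58, SE 0.09, limma adjusted p = 0.00852). The groups did not overlap, with SDs of 0.05 in the mutants and 0.10 in the controls. Without mutant 1 the adjusted p was 0.0541. Sema3e, a ligand that binds plexin D1 without a neuropilin, fell from 7.50, 7.47 and 7.89 to 7.14, 7.07 and 6.95 (−0.57, SE 0.13, adjusted p = 0.0426). These are values below the array medians. With the replicate number as a block the adjusted p of Sema3e was 0.0622, and it did not pass without any single sample, with values from 0.0548 (control 3) and 0.0598 (control 1) over 0.0606 (control 2), 0.0872 (mutant 2) and 0.114 (mutant 1) to 0.17 (mutant 3). Nor did it pass without mutant 2 and control 2 together (0.102).

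The other class 3 genes did not pass. Sema3b, which binds neuropilins, was at 12.16, 11.67 and 11.93 in the mutants and at 12.21, 12.20 and 12.63 in the controls, all mutants below all controls (log2 difference −0.43, limma adjusted p = 0.193). Sema3f, the main neuropilin 2 ligand, also had all mutants below all controls, at 9.06, 9.06 and 9.08 against 9.26, 9.18 and 9.34 (−0.19, adjusted p = 0.213). Sema3a, the classical axon-repelling semaphorin and neuropilin 1 ligand, was at 6.71, 7.18 and 6.69 against 7.01, 7.08 and 6.53, with overlapping groups (−0.01, 95% confidence interval −0.47 to 0.44, adjusted p = 0.977). The interval of Sema3a does not reach a change of 0.5 in either direction on this scale, and values as low as these may be background.

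Class 4 semaphorins are membrane proteins that mostly bind B plexins, and of 6 genes 1 rose, 2 fell and 3 did not pass. Sema4g, a ligand of plexin B2, was at 9.35, 9.53 and 9.98 in controls 1 to 3 and at 6.78, 6.77 and 6.96 in mutants 1 to 3. Every mutant value lay below every control value and below the array medians. The log2 difference was −2.78 (SE 0.17, 6.89-fold lower, limma adjusted p = 0.00034), and 35 of the 787 genes that fell did so by more. It ran from −2.92 to −2.60 over 16 alternative settings and passed in all of them.

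Sema4c, another ligand of plexin B2, fell from 11.13, 11.27 and 11.82 in the controls to 10.46, 10.09 and 10.30 in the mutants. The controls varied more than the mutants, with control 3 the highest, and the groups did not overlap. Sema4c differed by −1.12 on the log2 scale (SE 0.19, limma adjusted p = 0.0141), with an adjusted p of 0.0631 without mutant 3 and 0.0749 without mutant 2 and control 2.

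Sema4b, a further membrane member of the class, rose from 9.34, 9.11 and 9.26 to 9.72, 9.54 and 9.71. This was the smallest difference that passed, at 0.41 (SE 0.10, limma adjusted p = 0.0458). It passed in 7 of 16 alternative settings, and not without mutant 1 (0.194), mutant 3 (0.184), control 1 (0.053), control 2 (0.13) or control 3 (0.0917), nor with sex as a covariate (0.0994).

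Among the class 4 genes that did not pass, Sema4d, the ligand of plexin B1 and CD72, was at 8.40, 8.83 and 8.27 in the mutants and at 8.68, 9.64 and 9.06 in the controls. The highest value of each group was that of sample 2, the muscle-rich one, and the groups overlapped (log2 difference −0.63, limma adjusted p = 0.213). With the replicate number as a block the adjusted p was 0.0391, and without control 2 the difference was −0.37 (adjusted p = 0.366). The block was the only 1 of 16 alternative settings in which Sema4d passed. Sema4a, an immune cell semaphorin, was at 8.54, 8.51 and 8.53 in the mutants against 8.43, 8.33 and 7.89 (0.31, adjusted p = 0.277), with control 3 apart from the other controls. Without control 3 the Sema4a difference was 0.15, and with the adipocyte score as a covariate its adjusted p was 0.0494. That covariate was the only 1 of 16 alternative settings in which Sema4a passed. Sema4f, at 6.98, 7.02 and 6.97 against 7.29, 7.11 and 7.14, had all mutants below all controls (−0.19, adjusted p = 0.247).

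Both class 5 semaphorins, membrane proteins with thrombospondin repeats, changed, and in opposite directions. Sema5a, a ligand of plexin B3, was at 12.22, 12.18 and 12.65 in the controls and at 10.16, 9.65 and 10.23 in the mutants. All mutants lay far below all controls, and mutant 2 was the lowest. The log2 difference was −2.34 (SE 0.19, 5.06-fold lower, limma adjusted p = 0.000979), and 63 of the 787 genes that fell did so by more. Sema5b, a guidance cue of the retina and the forebrain, rose from 8.30, 8.09 and 8.19 to 8.80, 8.79 and 9.04 (0.68, SE 0.10, adjusted p = 0.00892). The adjusted p of Sema5b was 0.0502 without mutant 2 and control 2.

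Class 6 semaphorins are membrane proteins that bind A plexins, and of 4 genes 1 rose, 2 fell and 1 did not pass. Sema6c, a class 6 semaphorin also known from muscle, was at 10.22, 10.72 and 10.83 in the controls and at 8.05, 8.98 and 7.93 in the mutants. The muscle-rich mutant 2 was nearest to the controls, while among the controls sample 2 did not stand apart. The log2 difference was −2.27 (SE 0.30, 4.83-fold lower, limma adjusted p = 0.00511), the largest error among the 31 genes. It was −2.60 without mutant 2 and −2.54 without mutant 2 and control 2.

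Sema6d, a ligand of plexin A1, fell from 11.59, 11.71 and 12.16 to 10.64, 10.31 and 10.57 (log2 difference −1.31, SE 0.17, limma adjusted p = 0.00455). Each group varied less than the gap between them. Sema6a, a ligand of plexins A2 and A4 that guides axons and keeps motor neuron cell bodies in the spinal cord, went the other way. It rose from 10.83, 10.64 and 10.71 in the controls to 11.81, 11.38 and 11.84 in the mutants (0.95, SE 0.14, adjusted p = 0.00813), and mutant 2 was the lowest mutant. Sema6b, a ligand of plexin A4, was at 8.35, 8.35 and 8.31 in the mutants and at 8.66, 8.46 and 8.56 in the controls (−0.22, adjusted p = 0.176), without overlap.

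Sema7a, the class anchored to the membrane by a lipid, which binds plexin C1 and integrins with the beta 1 chain, was the member nearest the threshold among those that missed it. It was at 9.45, 9.19 and 9.25 in the mutants and at 9.74, 9.70 and 10.17 in the controls, so every mutant lay below every control. The log2 difference was −0.57 (SE 0.15, limma adjusted p = 0.0592), and the adjusted p was 0.0389 with sex as a covariate and 0.0194 with the adipocyte score. Sema7a passed in 3 of 16 alternative settings, these and repeated quantile normalization, and its highest limma adjusted p over the settings was 0.208.

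All 3 B plexins, the receptors of class 4 semaphorins and Sema5a, changed: Plxnb1 and Plxnb3 fell and Plxnb2 rose. Plxnb3 was at 10.75, 10.85 and 11.31 in the controls and at 9.95, 9.38 and 9.85 in the mutants, without overlap (log2 difference −1.24, SE 0.20, 2.37-fold lower, limma adjusted p = 0.0107). Plxnb1 was at 10.36, 10.41 and 10.84 in the controls and 9.79, 9.44 and 9.62 in the mutants (−0.92, SE 0.16, adjusted p = 0.0131). In both genes control 3 was the highest and mutant 2 the lowest value. Plxnb1 did not pass without mutant 3 (0.0607) or without mutant 2 and control 2 (0.0642).

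Plxnb2, which is widely expressed outside neurons, rose from 10.02, 9.97 and 10.15 in the controls to 10.87, 10.63 and 10.96 in the mutants. The controls lay close together (SD 0.09) and every mutant was above them. Plxnb2 differed by 0.77 on the log2 scale (SE 0.11, 1.71-fold, limma adjusted p = 0.00698), and it passed in all 16 alternative settings.

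None of the 4 A plexins, the signalling receptors for neuropilin-bound class 3 and for class 6 semaphorins, passed, with 1 at an unadjusted p under 0.05 (limma). That was Plxna2, at 9.78, 9.57 and 9.77 in the mutants and at 9.42, 9.23 and 8.95 in the controls, where every mutant was above every control (log2 difference 0.50, SE 0.14, adjusted p = 0.068). It passed in 3 of 16 alternative settings: without control 1 (0.0401), with sex (0.0487) and with the adipocyte score as a covariate (0.0289). The highest limma adjusted p of Plxna2 over these settings was 0.24. Plxna1 and Plxna3 had all mutants below all controls, Plxna1 between 10.20 and 10.37 against 10.44 to 10.52 (−0.17, adjusted p = 0.294) and Plxna3 between 9.02 and 9.37 against 9.40 to 9.82 (−0.31, adjusted p = 0.279). The Plxna3 difference was −0.18 without control 3 and −0.21 without mutant 2. Plxna4 overlapped between the groups (0.05, 95% confidence interval −0.21 to 0.32, adjusted p = 0.828).

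Plxnc1, the Sema7a receptor of immune and other cells, was at 8.94, 8.70 and 9.16 in the mutants and at 8.32, 8.32 and 8.65 in the controls. Every mutant was above every control, mutant 2 only just (log2 difference 0.50, SE 0.15, limma adjusted p = 0.0964). With the replicate number as a block the adjusted p was 0.0311. This was the only 1 of 16 alternative settings in which Plxnc1 passed, and its highest limma adjusted p over them was 0.3. Plxnd1, the Sema3e receptor of endothelial cells, overlapped between the groups, at 10.51 to 10.85 in the mutants and 10.72 to 10.86 in the controls (−0.09, 95% confidence interval −0.35 to 0.17, adjusted p = 0.688).

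Neither neuropilin passed, and neither had an unadjusted p under 0.05 (limma). Nrp1, the Sema3a and VEGF coreceptor, was at 10.92, 10.78 and 10.79 in the mutants and at 10.76, 10.34 and 9.85 in the controls. The mutants were close together and all above the controls, which were spread (SD 0.45, log2 difference 0.51, SE 0.21, adjusted p = 0.224). Without control 1, the control nearest the mutants, the difference was 0.73 and the adjusted p 0.0482, and without control 3, the farthest, the difference was 0.28. With the adipocyte score as a covariate it was 0.60 (adjusted p = 0.018). Nrp1 passed in 2 of 16 alternative settings, without control 1 and with this score. Nrp2, the Sema3f coreceptor, was at 10.54, 10.35 and 10.56 against 10.19, 10.26 and 10.46, and the groups overlapped (0.18, 95% confidence interval −0.08 to 0.43, adjusted p = 0.406).

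Set side by side as ligand and receptor, some known pairs had differences of the same sign and others not. Sema5a and Plxnb3 both fell (log2 differences −2.34 and −1.24). Sema4g and Sema4c fell (−2.78 and −1.12) while their receptor Plxnb2 rose (0.77). Plxnb1 fell (−0.92), and its ligand Sema4d stood at −0.63 and did not pass. Sema3d and Sema3c rose, with Nrp1 at 0.51 and Nrp2 at 0.18, which did not pass. Sema3g, also of class 3, fell (−0.58), and Sema3b, which binds neuropilins, stood at −0.43 and did not pass. Both had the sign opposite to that of the neuropilins. For Sema6a, which rose (0.95), the receptors Plxna2 and Plxna4 stood at 0.50 and 0.05 and did not pass. Signs were opposite for Sema7a and Plxnc1 (−0.57 and 0.50) and for Sema3f and Nrp2 (−0.19 and 0.18). They were also opposite for Sema6b and Plxna4 (−0.22 and 0.05) and for Sema3a and Nrp1 (−0.01 and 0.51). None of these passed. Signs were the same for Sema3e and Plxnd1 (−0.57 and −0.09) and for Sema6d and Plxna1 (−1.31 and −0.17), where only the ligands passed. These are transcript differences of whole nerves, and the pairs share their arrays, so the shared signs carry no test.

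**Figure D3:**
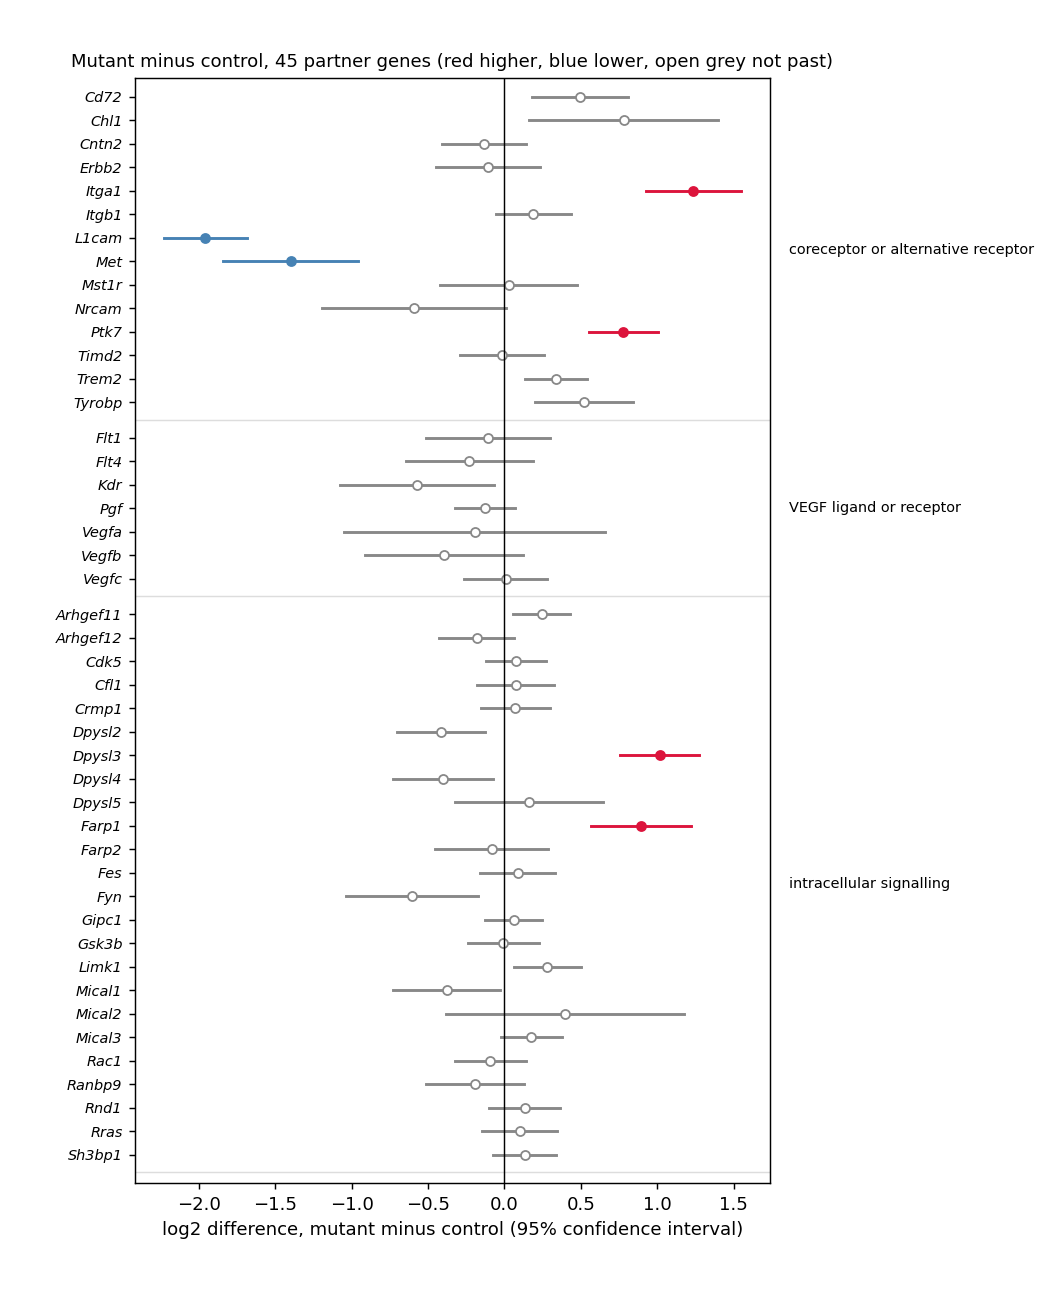
Log2 difference, mutant minus control, of 45 partner genes in 3 roles, with 95% confidence intervals (3 mice a group). Red points rose, blue points fell and open grey points did not pass. L1cam at −1.96 and Itga1 at 1.24 are the extremes, and none of the VEGF genes passed.

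Partner genes of the system were listed by role: of 45 measured genes 4 rose and 2 fell, 39 did not pass, and the median log2 difference was 0.03. This is 13.3% of the partners, against 9.62% of all named genes, so their count lay near the background. Among 14 coreceptors and alternative receptors 2 rose and 2 fell. L1cam, an adhesion molecule that forms a Sema3a receptor complex with neuropilin 1, was at 9.79, 9.93 and 10.16 in the controls and at 8.09, 7.95 and 7.96 in the mutants (−1.96, SE 0.11, limma adjusted p = 0.000325). Met, the HGF receptor, which can associate with B plexins, fell from 9.42, 9.51 and 9.53 to 7.80, 8.53 and 7.94, with mutant 2 the highest mutant (−1.40, SE 0.19, adjusted p = 0.00532). Itga1, the integrin chain that pairs with the beta 1 chain as a Sema7a receptor, rose from 9.89, 9.73 and 9.77 to 11.17, 10.76 and 11.17 (1.24, SE 0.13, adjusted p = 0.00233). Ptk7, a pseudokinase receptor that associates with plexins, rose by 0.78 (SE 0.10, adjusted p = 0.00395).

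Of 24 measured genes of intracellular signalling 2 rose and none fell (limma), 8.33% of them, which is no more than the 9.62% of all named genes. Dpysl3, of the collapsin response mediator proteins that relay semaphorin signals to the cytoskeleton, rose from 9.72, 9.81 and 9.77 to 10.89, 10.57 and 10.88 (log2 difference 1.02, SE 0.11, adjusted p = 0.00244). Its relative Dpysl2, the founding member, was at −0.41 and did not pass (adjusted p = 0.0909). Farp1, a relative of Farp2, which binds A plexins, rose from 9.20, 9.09 and 9.10 to 9.97, 9.79 and 10.30 (0.89, SE 0.14, adjusted p = 0.00929). Fyn, a kinase downstream of plexin A and neuropilin 1, stood at −0.60 (adjusted p = 0.0989). None of the 7 VEGF ligands and receptors, which share the neuropilins, passed. Kdr, the main VEGF receptor of endothelium, had the smallest p of these, with a difference of −0.57 (adjusted p = 0.167).

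Markers of other cells moved between the groups to different degrees, and in whole nerve fewer cells of a type and less RNA per cell cannot be told apart. Of 7 perineurial markers 5 rose and none fell, and their mean ran from 11.34 to 11.49 in the mutants and from 10.31 to 10.67 in the controls. Of 8 fibroblast markers 2 rose, with means of 11.77 to 12.06 against 11.49 to 11.75. All 3 measured myelin markers fell, with means of 10.60 to 10.93 against 12.98 to 13.27, and of 6 Schwann cell lineage markers 2 fell, S100b and Erbb3. Of 8 endothelial markers 1 fell, Cldn5, and of 8 neuronal and axonal markers 1 fell, Uchl1. None of 11 macrophage markers passed, with means of 9.23 to 9.54 against 8.95 to 9.25, and none of the muscle, fat, mural cell, lymphocyte and mast cell markers did. Which cells carried the semaphorin, plexin and neuropilin transcripts, and the part of these marker shifts in their differences, was not tested.

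**Figure D4:**
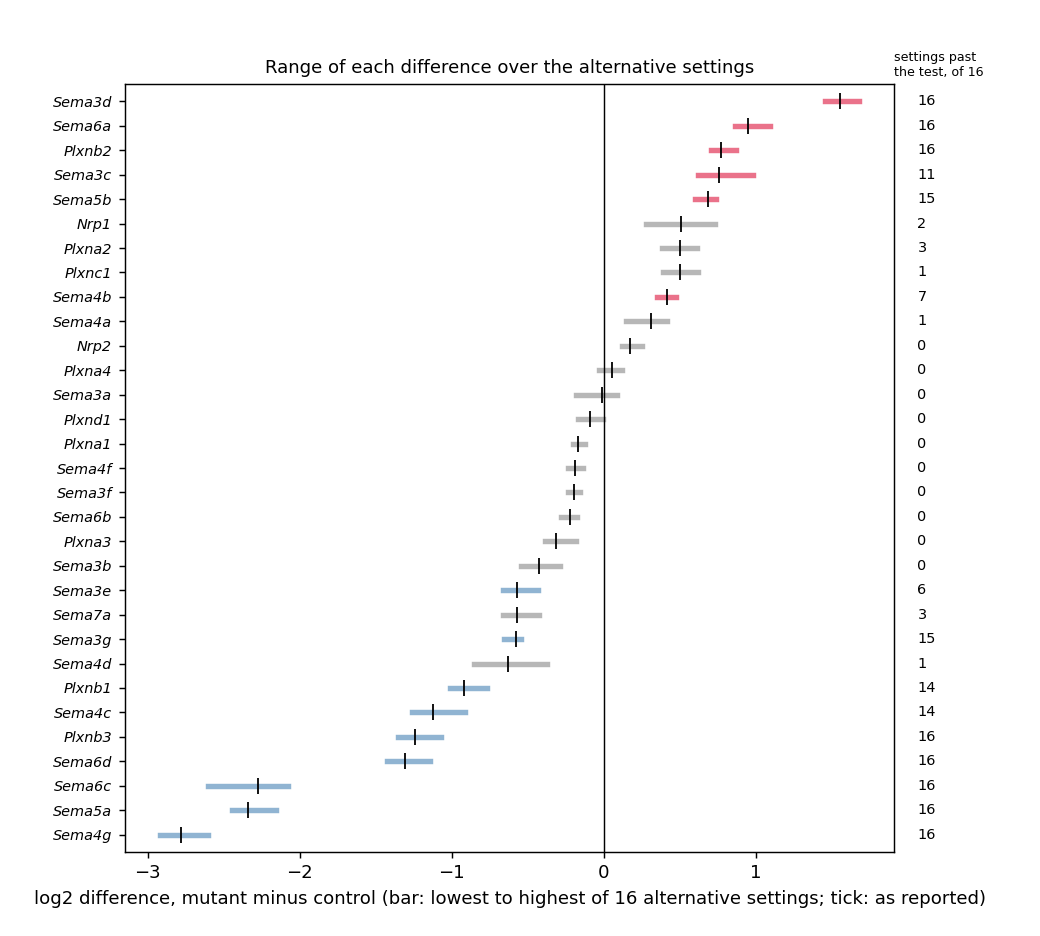
Range of each member's log2 difference, mutant minus control, over 16 alternative settings (bars), with the reported value (tick) and, at the right, the number of settings in which it passed. Red and blue bars are members that rose or fell as reported and grey bars those that did not pass. Sema4g, Sema5a, Sema6c, Sema6d, Plxnb3, Plxnb2, Sema6a and Sema3d passed in all 16, and no red or blue bar reaches 0.

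Over the 16 alternative settings 8 of the 15 changed members passed in every one, namely Sema4g, Sema5a, Sema6c, Sema6d, Plxnb3, Plxnb2, Sema6a and Sema3d. The other 7 lost the call in at least 1 setting and kept their direction in all. Of the 16 members that did not pass, 10 passed in no setting and 6 passed in between 1 and 3. The differences of the 8 genes ran from −2.92 to −2.60 for Sema4g, −2.44 to −2.16 for Sema5a, −2.60 to −2.07 for Sema6c and −1.42 to −1.14 for Sema6d. They ran from −1.35 to −1.07 for Plxnb3, 0.71 to 0.87 for Plxnb2, 0.86 to 1.10 for Sema6a and 1.45 to 1.68 for Sema3d.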

How the data were processed

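Total RNA of sciatic nerves was amplified with the Ambion WT kit, biotin-labelled and hybridised to 1-colour Affymetrix arrays, per the labels' protocols. The authors deposited log2 values, 1 per probe set and array. The log base was read from the values. The submitters' processing notes name limma, while its role, the background correction, the normalization and the genome build are not given in the sources used for this work. Platform annotation, checked against RefSeq by Entrez number, named 20239 of 21225 probe sets by 1 symbol, 0 by several, and left 986 unnamed. All 31 members were measured, with no filter on low values.

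For the 20239 genes, limma 3.58.1 was run in R 4.3.3 (functions lmFit and eBayes, two-sided, 6.893 degrees of freedom), mutant minus control, with Benjamini-Hochberg adjustment over all of them. The threshold was an adjusted p under 0.05. SE is the moderated standard error. The fit was tested on simulated data with known changes.

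Samples with the same number deviated together from their group means (correlations 0.36, 0.574 and 0.295, all over 0.1), so the number was a block in an alternative. The labels do not say what a number marks, the muscle scores followed it, and mutant 1 and control 3 correlated at 0.303. No 2 arrays correlated above 0.995. The p-values set the group difference against the spread among the samples within each group, as moderated by limma over all genes.

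Members, partner and marker lists and alternatives were chosen with earlier results of these data known. Named were all members, Zeb2, all partner genes that passed and, in each role, the partner with the smallest p. Dpysl2 and Fyn were picked once their values were known. The partner Rhod, 3 myelin markers, 1 adipocyte and 1 lymphocyte marker were not analysed here. Figures used matplotlib 3.10.9 in Python 3.11.15.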

Additional observations from a re-analysis of the deposited data

How the results depend on the processing

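The 16 alternatives were a filter on the lowest 25% of genes, repeated quantile normalization, 16 added to the linear values, a trended robust prior, the replicate block, every probe set, the muscle score, the adipocyte score or sex as a covariate, leaving out mutant 2 and control 2, and leaving out each sample in turn. The family held 6 higher and 9 lower genes as reported, 4 to 6 higher and 6 to 8 lower without any one sample, 4 and 6 without mutant 2 and control 2, and 7 and 9 with the replicate block, which changed no call of a family member other than those of Sema3e, Sema4d and Plxnc1. Partner genes numbered 4 to 6 higher and 2 to 3 lower without any one sample, and 6 were lower with the adipocyte score as a covariate instead of 2. Over all named genes 1161 were higher and 787 lower, 502 to 1397 and 392 to 744 without any one sample, and 453 were lower without mutant 2 and control 2. Zeb2 ran from −0.97 to −0.74 without any one sample, and without mutant 1 was −0.92 (limma adjusted p = 0.0522). No called member changed direction, and of the others Sema3a and Plxna4 did. The 3 arrays a group limit the precision, so members that did not pass may still differ.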

Other observations

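Several members are neighbours in the RefSeq annotation of assembly GRCm38.p6 and had different values in the nerve. On chromosome 5, Sema3d, Sema3a, Sema3e and Sema3c follow each other, with 0, 3 and 15 other protein-coding genes between them, and their log2 differences were 1.56, −0.01, −0.57 and 0.76. Of the direct neighbours Sema3d and Sema3a, the first rose and the second did not pass the test. On chromosome 9, Sema3b and Sema3f, with 3 protein-coding genes between them, stood at −0.43 and −0.19 and neither passed. On chromosome X, Plxnb3 is separated by 4 protein-coding genes from L1cam, and L1cam by 18 from Plxna3, with differences of −1.24, −1.96 and −0.31, of which Plxnb3 and L1cam passed. Sex was mixed in both groups, and with sex as a covariate Plxnb3 and L1cam passed as lower too. These neighbourhoods were looked at after the values were known and carry no test.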
